A study of Mus musculus with 6 samples.

Results

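Metallothioneins and the carriers that move zinc across membranes were followed in mouse peritoneal macrophages exposed to ligands of Toll-like receptors. The 7 genes were Mt1, Mt2, Mtf1, Slc30a1, Slc39a1, Slc39a6 and Slc39a14. They were found by gene symbol among the 19935 genes that the array's annotation named with a single symbol, and all 7 were measured. Slc39a1 had 2 probes, which were averaged, and the other genes had 1 probe each. The genes were selected on the differences between the groups of these same arrays, all 3 comparisons of which were known, so their values are given as a description. No p-value is printed for them, and where one is said to be called, the call describes the fit and supports nothing.

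The macrophages came from the peritoneal cavity of the inbred mouse strain C57BL/6. The groups were cells given poly I:C, which mimics viral double-stranded RNA and acts through TLR3 (2 ug/mL for 24 h), cells given PAM, a lipopeptide that activates TLR2 (1 ug/mL for 24 h), and non-treated control cells. Each of the 3 groups held 2 arrays, 6 in all, and the sample descriptions name the PAM compound PAMCSK3 for replicate 1 and PAMCSK4 for replicate 2. How long the control cells were cultured is not stated. Nor is it stated that replicates were separate animals or cultures, so SEs and p-values rest on a spread between samples that may be only technical.

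Metallothioneins are small cysteine-rich proteins that bind zinc and copper and so buffer these metals in the cytosol. Free zinc is sensed by the zinc finger protein MTF1, which then binds metal response elements in the promoters of metallothionein genes and of Slc30a1. Carriers of the SLC30 family move zinc out of the cytosol, across the cell surface or into vesicles, whereas SLC39 carriers move it in. Macrophages use these proteins to withhold zinc from microbes or to load it into phagosomes.

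Values are on a log2 scale on which each probe had been centred on its median over the 6 arrays, so a value says how far an array lay from that median and not how abundant the transcript was. Differences between group means are given with their SE from limma (n = 2 arrays per group), whose median over all genes was 0.07. The precision is limited by the number of arrays. A gene was called where limma's adjusted p over all 19935 genes was under 0.05. In RNA from whole cultures, fewer cells of a type and less RNA per cell cannot be told apart.

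The numerical steps left in the deposited values show whether a probe lay at 8 or above on every array before centring. This held for all 8 macrophage markers examined (Adgre1, Cd68, Lyz2, Csf1r, Itgam, Mertk, Fcgr1 and Cd14). It held for none of the 4 measured B cell, 7 neutrophil, 4 mast cell and 3 eosinophil markers, for 1 of 6 T and NK cell markers (Cd8a) and for 3 of 5 mesothelial and fibroblast markers (Col1a1, Col3a1 and Dcn). Of the genes described here, Mt1, Mt2, Slc30a1, Slc39a1 and Slc39a6 were at 8 or above on all arrays, and Mtf1 and Slc39a14 were not.

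Both metallothionein genes lay far lower in macrophages given poly I:C, and they parted with PAM. Mt2 stood at -2.47 and -2.09 on the poly I:C arrays, at 0.60 and 0.47 on the PAM arrays and at 0.01 and -0.01 on the control arrays. The groups did not overlap, with PAM highest and poly I:C lowest. The difference between poly I:C and control was -2.28 ± 0.11, a 4.84-fold lower value and the 44th lowest of the 19935 genes. Between PAM and control the difference was 0.54 ± 0.11, or 1.45-fold higher.

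Mt1 stood at -1.48 and -1.56 on the poly I:C arrays, at 0.03 and -0.03 on the PAM arrays and at 0.19 and 0.31 on the control arrays. Here too the groups did not overlap, but control was highest. Its difference between poly I:C and control was -1.77 ± 0.07, which is 3.41-fold lower and the 90th lowest of all genes. With PAM it was -0.25 ± 0.07, opposite in sign to that of Mt2. This small difference of Mt1 is no longer called when any 1 of the 6 arrays except control replicate 1 is left out (-0.31 to -0.19 over the 6 fits). Leaving out a poly I:C array changes the spread used but not the difference itself (-0.25). The PAM difference of Mt2 is not called without PAM replicate 1 (0.47).

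Set directly against PAM, poly I:C gave 7.03-fold lower Mt2 (-2.81 ± 0.11) and 2.87-fold lower Mt1 (-1.52 ± 0.07). Mt1 and Mt2 are neighbouring genes on mouse chromosome 8. The family members next to them, Mt3, known from brain, and Mt4, known from stratified epithelium, had probes below 8 on at least 1 array. Mt3 differed by -0.13 ± 0.08 with poly I:C and fell by 0.34 ± 0.08 with PAM (adjusted p = 0.0128 for PAM, limma; not called without PAM replicate 2, adjusted p = 0.111). Mt4 differed by -0.15 ± 0.13 with poly I:C and -0.21 ± 0.13 with PAM without passing, except for PAM without PAM replicate 1 (-0.43, adjusted p = 0.0197, limma).

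Of the 8 macrophage markers 2 rose and 3 fell with poly I:C, where 12.1% of all genes rose and 18.2% fell. Fcgr1 (2.65) and Mertk (0.22) rose, and Adgre1 (-0.97), Itgam (-1.49) and Cd14 (-1.28) fell. With PAM 3 rose and 3 fell, against 11.0% and 14.0% of all genes. Cd14 (2.39), Adgre1 (1.38) and Csf1r (0.74) rose, and Fcgr1 (-1.72), Mertk (-1.23) and Itgam (-0.49) fell. Some markers of other cells also moved beside the metallothioneins. Among the 5 mesothelial and fibroblast markers, 3 fell with poly I:C (Upk3b by 0.40, Col1a1 by 0.36 and Col3a1 by 0.69), against 18.2% of all genes. With PAM 1 fell (Upk3b) and 1 rose (Dcn, 0.95), against 14.0% and 11.0% of all genes. Of the 4 measured B cell markers, Cd79b and Ms4a1 rose by 0.36 and 0.44 with poly I:C and by 0.62 and 0.51 with PAM. The other B cell markers, Cd79a and Cr2, were not called with either ligand. Siglecf, listed as an eosinophil marker, fell by 0.95 with poly I:C and by 1.21 with PAM. The other eosinophil markers, Prg2 and Epx, were not called with either ligand. Centred values hold no summed level for these lists, and their part in the metallothionein values was not tested.

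**Figure D1:**
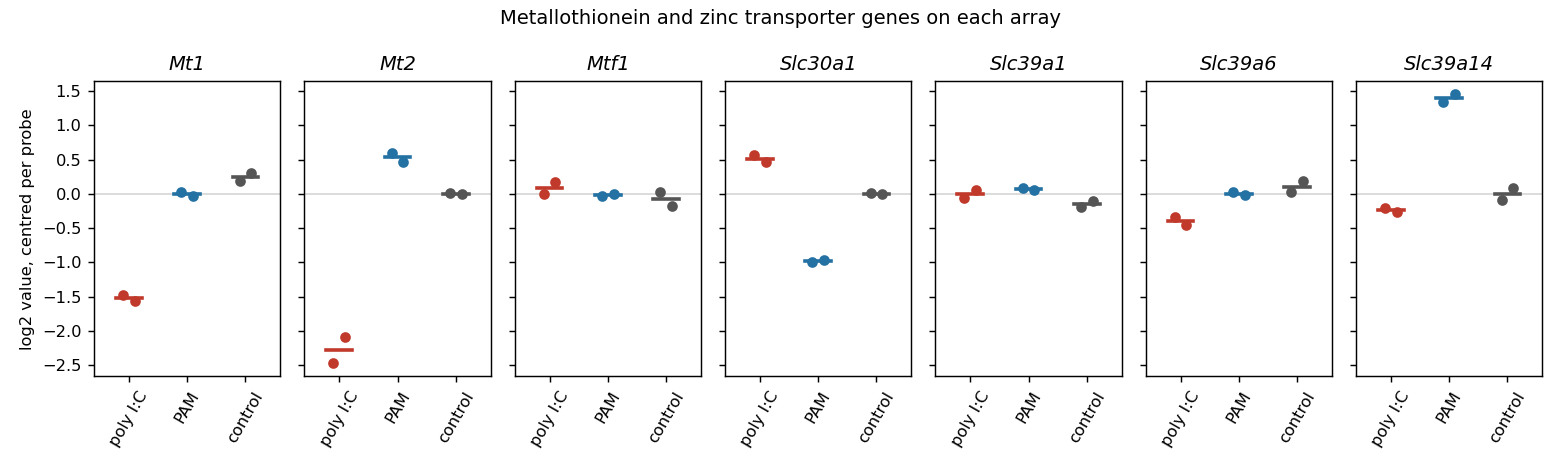
Each panel is 1 gene, with the log2 value centred per probe on the y axis and the poly I:C, PAM and control groups on the x axis. Points are single arrays and bars are the means of 2 arrays. Mt1 and Mt2 are lowest with poly I:C, Slc39a14 is highest with PAM, and Slc30a1 is highest with poly I:C and lowest with PAM.

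Mtf1, the gene of the zinc sensor itself, showed no comparable difference. It stood at 0.00 and 0.17 on the poly I:C arrays, at -0.03 and 0.00 on the PAM arrays and at 0.02 and -0.18 on the control arrays. Each ligand's arrays overlapped with the control arrays. Its differences from control were 0.16 ± 0.09 with poly I:C and 0.06 ± 0.09 with PAM, and neither was called, also in every alternative fit.

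The promoters of Mt1, Mt2 and Slc30a1 are shown because these genes are textbook targets of MTF1 and moved apart in these arrays. The windows are taken from RefSeq (GRCm38.p6, plus strand) and run from 250 bases before to 50 bases after a transcription start, which need not be the one used in macrophages. They cover chr8:94178839-94179138 for Mt1, chr8:94172368-94172667 for Mt2 and chr1:191906531-191906830 for Slc30a1. Capitals mark each match to the core of the metal response element, TGCACNC or TGCGCNC on either strand.
Mt1: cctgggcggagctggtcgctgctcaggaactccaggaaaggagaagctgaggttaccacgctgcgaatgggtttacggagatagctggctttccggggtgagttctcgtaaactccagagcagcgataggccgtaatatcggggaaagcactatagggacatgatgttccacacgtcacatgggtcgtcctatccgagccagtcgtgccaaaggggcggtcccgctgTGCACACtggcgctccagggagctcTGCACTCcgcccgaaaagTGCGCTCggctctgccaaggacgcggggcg
Mt2: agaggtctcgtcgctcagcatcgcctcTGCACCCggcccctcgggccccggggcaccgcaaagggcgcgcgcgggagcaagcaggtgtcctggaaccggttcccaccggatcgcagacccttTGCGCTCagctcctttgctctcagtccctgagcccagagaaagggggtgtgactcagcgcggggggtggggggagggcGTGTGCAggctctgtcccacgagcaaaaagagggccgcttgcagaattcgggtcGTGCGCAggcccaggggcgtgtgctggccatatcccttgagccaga
Slc30a1: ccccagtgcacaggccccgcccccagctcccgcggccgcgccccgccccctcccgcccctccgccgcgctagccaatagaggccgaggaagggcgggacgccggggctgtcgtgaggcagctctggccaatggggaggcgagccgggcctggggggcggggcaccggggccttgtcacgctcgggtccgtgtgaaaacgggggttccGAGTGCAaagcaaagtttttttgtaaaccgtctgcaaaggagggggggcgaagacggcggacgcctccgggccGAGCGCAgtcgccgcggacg

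The Mt2 window held 4 matches, the Mt1 window 3 and the Slc30a1 window 2, and no 2 matches overlapped. Of all 32851 promoter windows of this length in the table, 25.7% held at least 1 match, 7.11% at least 2, 1.97% at least 3 and 0.517% at least 4. The windows of Mtf1 and Slc39a1 held none. The core of the antioxidant response element (TGACNNNGC on either strand, 12.4% of all windows) was matched once each in the windows of Mt2, Slc30a1 and Slc39a1, apart from the other matches. The STAT site core TTCNNNGAA (8.3% of windows, either strand) was matched in none of these 5 windows. A match describes letters in the window only, and sequence outside the windows was not searched. The Mt1 matches began at -23, 3 and 21 bases from its RefSeq start, near the end of its window. The counts, and the lack of an antioxidant core in the Mt1 window, therefore hold for these windows and not for whole promoters. Of the remaining genes, Slc39a6 and Slc39a14 were not searched.

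**Figure D2:**
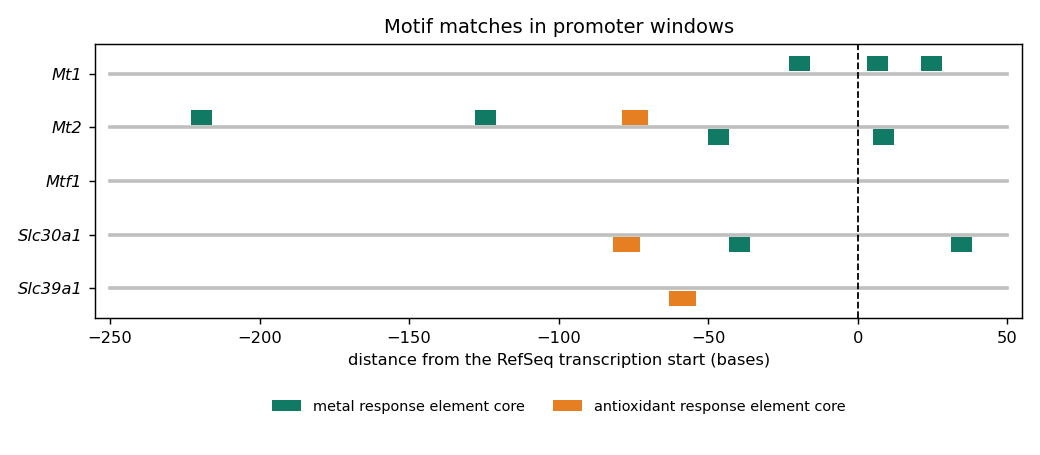
Motif matches in the promoter windows of Mt1, Mt2, Mtf1, Slc30a1 and Slc39a1, with the distance from the RefSeq transcription start in bases on the x axis. Boxes above a line are matches on the gene's strand and boxes below it on the opposite strand; Mt2 has 4 metal response element cores, Mt1 has 3 and Slc30a1 has 2.

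Slc30a1, the zinc exporter of the cell surface and itself a target of MTF1, lay on opposite sides of control with the 2 ligands. It stood at 0.56 and 0.46 on the poly I:C arrays, at -0.99 and -0.97 on the PAM arrays and at 0.01 and -0.01 on the control arrays. None of the groups overlapped, with poly I:C highest and PAM lowest. The gene was 1.43-fold higher with poly I:C than in control (0.51 ± 0.07) and 1.97-fold lower with PAM (-0.98 ± 0.07). With poly I:C it was 2.81-fold higher than with PAM (1.49 ± 0.07). Its order of groups was the reverse of that of Mt2, which was lowest with poly I:C and highest with PAM.

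Among the importers, Slc39a14 stood out with PAM. The carrier it encodes brings zinc, manganese and iron other than transferrin-bound iron into the cell, and in mouse liver it is known as an acute-phase gene. It stood at -0.20 and -0.26 on the poly I:C arrays, at 1.34 and 1.45 on the PAM arrays and at -0.09 and 0.09 on the control arrays. All PAM values were above all others, and the poly I:C values lay just below those of control. The difference from control was 1.39 ± 0.08 with PAM, or 2.62-fold higher, and -0.23 ± 0.08 with poly I:C. The poly I:C difference was not called, except without control replicate 1 (-0.33). Poly I:C lay 3.08-fold below PAM (-1.62 ± 0.08).

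Slc39a6, an importer of the cell surface, was lower with poly I:C. It stood at -0.34 and -0.46 on the poly I:C arrays, at 0.02 and -0.02 on the PAM arrays and at 0.02 and 0.18 on the control arrays. The poly I:C arrays lay below all others, whereas the PAM and control arrays were close to each other. The differences from control were -0.50 ± 0.08 with poly I:C, or 1.42-fold lower, and -0.10 ± 0.08 with PAM, and poly I:C differed from PAM by -0.40 ± 0.08.

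Slc39a1, a widely expressed importer, varied little. The mean of its probes was -0.06 and 0.06 on the poly I:C arrays, 0.09 and 0.06 on the PAM arrays and -0.19 and -0.11 on the control arrays. Control was lowest, and the ligands' arrays lay close together. The difference from control was 0.15 ± 0.07 with poly I:C and 0.23 ± 0.07 with PAM. Its call with PAM was lost in each fit that left out 1 array (0.19 to 0.26). Leaving out a poly I:C array changed the spread used but not the difference itself (0.23). A pseudogene, Slc39a1-ps, lies on another chromosome, and whether the array tells it apart from Slc39a1 is not known. Both probes gave the same order, with control lowest, as they also could if either or both detected the pseudogene. The mean of the probes may then mix the gene with its pseudogene. This was not tested.

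Counted over the 7 genes, poly I:C minus control had 1 called higher (Slc30a1) and 3 called lower (Mt1, Mt2 and Slc39a6), where 12.1% of all genes were higher and 18.2% lower. PAM minus control had 3 higher (Mt2, Slc39a1 and Slc39a14) and 2 lower (Mt1 and Slc30a1), against 11.0% and 14.0% of all genes. Poly I:C minus PAM had 1 higher (Slc30a1) and 4 lower (Mt1, Mt2, Slc39a6 and Slc39a14), against 12.9% and 15.8%. The median difference over the 7 genes was -0.23 for poly I:C minus control, 0.06 for PAM minus control and -0.40 for poly I:C minus PAM, where the medians over all genes were 0.01, 0.00 and 0.01. Nothing is read from these counts, since the genes were chosen with these differences known. The ligands' comparisons with control share the same control arrays.

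**Figure D3:**
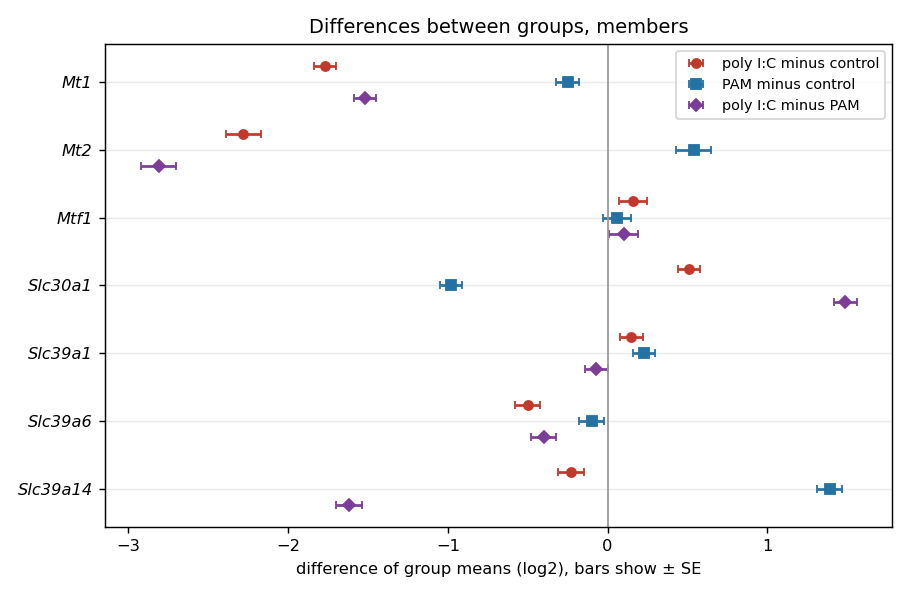
Differences of group means on the log2 scale (x axis, ± SE, 2 arrays per group) for each gene (y axis), for poly I:C minus control, PAM minus control and poly I:C minus PAM. Slc30a1, Mt2 and Slc39a14 have their poly I:C and PAM differences on opposite sides of 0. Of these, only Slc30a1 is higher with poly I:C and lower with PAM. The poly I:C difference of Slc39a14 (-0.23 ± 0.08) was not called.

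The other carriers of both families were taken from the same fit, as lists chosen with earlier results of these data known. With poly I:C 4 of the other 20 SLC30 and SLC39 genes rose and 5 fell, where 12.1% of all genes rose and 18.2% fell, and the median difference of 0.01 equalled that of all genes. With PAM 5 rose and 4 fell, against 11.0% and 14.0% of all genes, with a median of 0.00, also that of all genes. Between poly I:C and PAM 2 were higher and 7 lower, against 12.9% and 15.8% of all genes (median -0.02, against 0.01 over all genes). Of these 20 genes, 9 had probes at 8 or above on all arrays. Slc39a2, Slc39a4, Slc39a8, Slc39a12 and Slc30a4, named below, were not among them.

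Among the other SLC39 importers, Slc39a2 moved with poly I:C. It stood at 1.42 and 1.37 on the poly I:C arrays, at -0.15 and -0.06 on the PAM arrays and at -0.03 and 0.03 on the control arrays. It rose by 1.40 ± 0.07 with poly I:C (adjusted p = 5.46e-07, limma), while the PAM difference of -0.10 ± 0.07 did not pass. Poly I:C exceeded PAM by 1.50 ± 0.07 (adjusted p = 3.25e-07, limma).

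Slc39a4, the importer known for zinc uptake in the intestine, was highest with PAM. It stood at -0.01 and 0.01 on the poly I:C arrays, at 1.04 and 0.98 on the PAM arrays and at -0.42 and -0.54 on the control arrays. It rose by 1.49 ± 0.07 with PAM (adjusted p = 5.55e-07, limma) and by 0.48 ± 0.07 with poly I:C (adjusted p = 0.000672, limma), and the ligands themselves differed by -1.01 ± 0.07. Slc39a7, which releases zinc from the endoplasmic reticulum, rose by 0.50 ± 0.07 with PAM and differed by 0.11 ± 0.07 with poly I:C without passing.

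Slc39a10, an importer that MTF1 is known to repress in mouse cells, was highest in control. It stood at 0.05 and -0.05 on the poly I:C arrays, at -0.26 and -0.24 on the PAM arrays and at 0.77 and 0.75 on the control arrays. It fell by 0.76 ± 0.07 with poly I:C (adjusted p = 2.79e-05, limma) and by 1.01 ± 0.07 with PAM (adjusted p = 5.02e-06, limma). Slc39a11 fell by 0.98 ± 0.08 and 0.68 ± 0.08, and Slc39a8, a carrier of zinc and manganese, by 0.85 ± 0.08 and 0.47 ± 0.08, with poly I:C and PAM in that order. Slc39a12 fell by 0.29 ± 0.08 with PAM (adjusted p = 0.0343, limma), a call lost without PAM replicate 2 or either control replicate (adjusted p from 0.073 to 0.235).

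Of the other exporters, Slc30a4, whose carrier loads zinc into vesicles, moved with poly I:C. It stood at -0.89 and -0.75 on the poly I:C arrays, at 0.42 and 0.33 on the PAM arrays and at -0.15 and 0.15 on the control arrays. It fell by 0.82 ± 0.10 with poly I:C (adjusted p = 0.000242, limma), and poly I:C lay below PAM by -1.20 ± 0.10 (adjusted p = 2.07e-05, limma). Its increase of 0.38 ± 0.10 with PAM was lost without either PAM replicate or control replicate 1 (adjusted p from 0.0638 to 0.139, limma).

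Slc30a5 and Slc30a6, which pair to bring zinc into the secretory pathway, moved apart. Slc30a5 fell by 0.74 ± 0.07 with poly I:C (adjusted p = 4.1e-05, limma) and differed by -0.14 ± 0.07 with PAM without passing. Slc30a6 rose by 0.95 ± 0.08 with PAM (adjusted p = 1.77e-05, limma) and by 0.31 ± 0.08 with poly I:C, where the call needs both poly I:C replicates (adjusted p = 0.0608 and 0.0854 without replicate 1 or 2). Slc30a7, also of the secretory pathway, rose by 0.22 ± 0.07 with poly I:C and 0.26 ± 0.07 with PAM. The poly I:C call was lost in each fit without 1 array except that without control replicate 1. Leaving out a PAM array changed the spread used but not this difference (0.22). The PAM call was lost without either PAM replicate or control replicate 2.

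**Figure D4:**
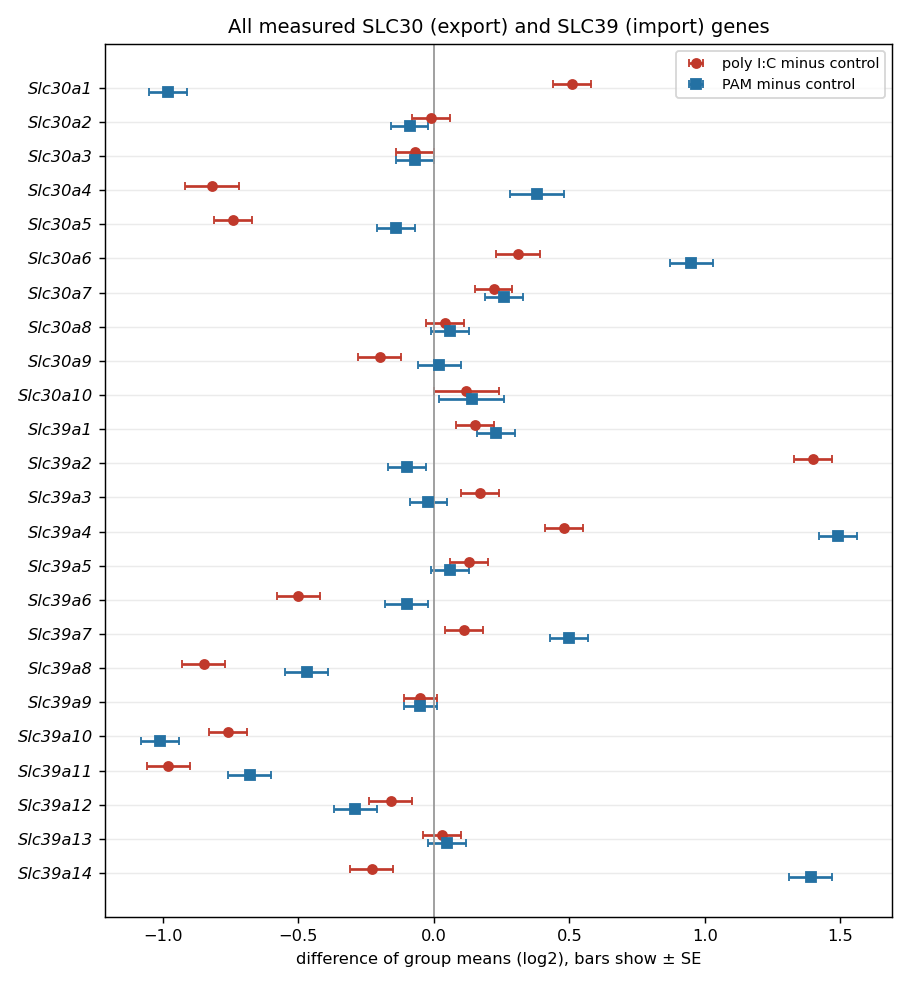
Differences from control on the log2 scale (x axis, ± SE, 2 arrays per group) for all measured SLC30 and SLC39 genes (y axis), for poly I:C and PAM. Slc39a2 is higher with poly I:C, Slc39a4 and Slc39a14 are higher with PAM, and Slc39a10 and Slc39a11 are lower with each ligand.

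Genes linked to MTF1 in mouse cells, other than those above, moved both ways. With poly I:C 3 of 5 rose and 2 fell, against 12.1% and 18.2% of all genes, with a median of 1.00 against 0.01 over all genes. With PAM 0 rose and 2 fell, against 11.0% and 14.0% of all genes (median -0.06, against 0.00). Like the other lists here, this one was chosen with earlier results of these data known, so its counts and p-values are a description. Selenow, a small selenoprotein gene, stood at 2.04 and 2.12 on the poly I:C arrays, at -0.11 and -0.06 on the PAM arrays and at -0.26 and 0.06 on the control arrays. It rose by 2.18 ± 0.10 with poly I:C (adjusted p = 4.26e-07, limma) and differed by 0.01 ± 0.10 with PAM without passing. Only the poly I:C arrays stood apart.

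Csrp1, a LIM domain protein gene, had the same order of groups as Slc30a1. It stood at 1.23 and 1.30 on the poly I:C arrays, at -0.78 and -0.73 on the PAM arrays and at 0.02 and -0.02 on the control arrays. It rose by 1.26 ± 0.07 with poly I:C (adjusted p = 8.42e-07, limma) and fell by 0.76 ± 0.07 with PAM (adjusted p = 2.82e-05, limma). The growth factor gene Pgf, whose probe was below 8 on at least 1 array, rose by 1.00 ± 0.11 with poly I:C. It differed by -0.06 ± 0.11 with PAM. Gclc, whose enzyme starts glutathione synthesis, fell by 0.87 ± 0.07 with poly I:C and differed by 0.11 ± 0.07 with PAM, while the stress gene Ndrg1 fell by 0.88 ± 0.07 and 0.74 ± 0.07, with poly I:C and PAM in that order.

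Metallothioneins also bind copper, and genes of copper handling, a list chosen in the same way, are described as well. Of 9 genes 3 rose and 2 fell with poly I:C, against 12.1% and 18.2% of all genes (median 0.01, as over all genes). With PAM 4 rose and 1 fell, against 11.0% and 14.0% (median 0.05, against 0.00). Slc31a2, a copper carrier of internal membranes, stood at 0.13 and 0.08 on the poly I:C arrays, at -0.02 and 0.02 on the PAM arrays and at -1.88 and -1.90 on the control arrays. It rose by 2.00 ± 0.06 with poly I:C (adjusted p = 3.6e-08, limma) and by 1.89 ± 0.06 with PAM (adjusted p = 6.98e-08, limma). Both ligands' arrays lay close together and far above control.

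Slc31a1, the copper importer of the cell surface, rose by 1.37 ± 0.08 with PAM and by 0.61 ± 0.08 with poly I:C. Cox17, a copper chaperone for cytochrome oxidase, rose by 1.03 ± 0.09 with poly I:C and 0.77 ± 0.09 with PAM. The copper pump gene Atp7a fell by 0.59 ± 0.08 with poly I:C and by 0.40 ± 0.08 with PAM, where the call was lost without PAM replicate 1 (adjusted p = 0.0597, limma). Of 4 measured other carriers and channels that pass zinc, 2 rose and 2 fell with poly I:C, against 12.1% and 18.2% of all genes, and 1 rose and 1 fell with PAM, against 11.0% and 14.0%. Calls of 3 of them, Tmem163, Mcoln1 and Trpm7, were lost in several fits that left out 1 array. The proton-coupled metal carrier gene Slc11a2 rose by 0.98 ± 0.07 with PAM (adjusted p = 7.53e-06, limma) and by 0.32 ± 0.07 with poly I:C, a call lost without poly I:C replicate 1 (adjusted p = 0.0531).

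S100a8 and S100a9 encode the chains of calprotectin, a secreted protein that withholds zinc and manganese from microbes. S100a8 stood at -0.42 and -0.15 on the poly I:C arrays, at 2.08 and 1.99 on the PAM arrays and at 0.09 and -0.09 on the control arrays. It rose by 2.04 ± 0.10 with PAM (adjusted p = 8.33e-07, limma), and its difference with poly I:C was -0.29 ± 0.10, called only without control replicate 2 or poly I:C replicate 2 among the fits run. S100a9 differed by -0.13 ± 0.06 with PAM and 0.00 ± 0.06 with poly I:C, and neither passed. Both probes were below 8 on at least 1 array. S100a8 and S100a9 are also neutrophil markers; of the 5 other neutrophil markers only Camp rose with PAM (0.64), and Ly6g, Mpo, Elane and Retnlg did not pass.

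Likeness of pattern was measured as the Euclidean distance between 2 genes over the 6 arrays, where 0 is an identical profile. The 3 genes nearest to Mt1 were Abcb4 (0.21), Akr1b8 (0.23) and Atp13a3 (0.23), and those nearest to Mt2 were Fasn (0.57), Hsd17b7 (0.64) and Ifi27 (0.64). Mt2 had no gene within a distance of 0.5, whereas Mt1 had 21, and Mt1 and Mt2 were 1.40 apart. Values were not scaled, so such counts depend on the size of a gene's differences, on which the genes were chosen. Nearest to Slc30a1 were Wee1 (0.21), Nr1d2 (0.23) and Selplg (0.24). Slc39a14 was closest to Ppp3cc (0.15), Cav2 (0.19) and Gja1 (0.20), and Slc39a6 to Cand1 (0.06), Adck5 (0.08) and Dctpp1 (0.09). The nearly flat profiles of Mtf1 and Slc39a1 had 13522 and 13232 genes within 0.5, so their nearest genes (Col20a1, Fam81a and 3110082J24Rik, and Hspa8, Zfp827 and Asb6) say little.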

How the data were processed

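The deposited table held log2 values of 28815 probes on 6 Affymetrix arrays hybridised with biotinylated cRNA, per the labels' protocols. The log base, summarization and normalization: not given in the sources used here. They were read as log2, on which every fold rests. The authors had centred each probe on its median over the arrays (largest remaining median 5e-07), so levels of different probes cannot be compared. Array medians lay between -0.0049 and 0.0072. No column was left out.

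Probes were named from the platform annotation. Of them 21780 had 1 symbol, 1605 several and 5430 none; 21689 were found by Entrez identifier in RefSeq, with 0 symbols changed. Probes of a gene were averaged. One mean per group was fitted to all 6 arrays with lmFit and eBayes (limma 3.58.1, R 4.3.3; 3 residual and 5.68 prior degrees of freedom), with Benjamini-Hochberg adjustment over 19935 genes. No dim probes were filtered. The genes and lists were chosen with earlier results of these data known. Named beyond the 7 genes were list genes called with a size of at least 1, up to 3 more called carriers or metallothioneins per direction and ligand, and the 3 nearest genes of each. Further list and marker genes were named after their values were seen.

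Centred values that are all whole multiples of the single-precision step from 8 upwards, within rounding, were read as 8 or above before centring. This held for 26.9% of probes, 91.7% of 204 ribosomal protein probes and 1.35% of 1035 olfactory receptor probes. On simulated data with independent normal errors, the fit called 68 of 100 genes changed 1.5-fold. Of those changed 2-fold and 4-fold it called 46 of 50 and 50 of 50, and of 19735 unchanged genes 1. Such errors cannot show whether the replicates are only technical. Alternatives covered centring and quantile normalization of arrays, variance models, the arrays fitted, a replicate block, probes and a fold minimum.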

Additional observations from a re-analysis of the deposited data

How the results depend on the processing

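Over the alternative fits, 256 of 276 values of the 7 genes kept their direction and their side of the threshold. All values of Slc30a1 and Slc39a6 did so. The count includes values called neither in the main fit nor in the alternative. It also counts some fits more than once, since leaving out an array of the group not compared repeats the 4-array fit. Nothing is read from the count, as the genes were chosen with these differences known. The direction turned for 1 value, the uncalled difference of Mtf1 with PAM (0.06), which was -0.04 without control replicate 2 and ranged from -0.04 to 0.16 without 1 array. With PAM, Mt1 (-0.25) was not called with only the 4 arrays compared (-0.25), with quantile normalization (-0.21) or in 5 of the 6 fits without 1 array (range of the 6 fits -0.31 to -0.19). Slc39a1 with PAM (0.23) was not called with trend and robust fitting (0.23), with the 4 arrays (0.23), for probe 1 alone (0.20) or without any 1 array (0.19 to 0.26). For both genes, the fits without a poly I:C array repeat the 4-array fit. Without 1 array the PAM value of Mt2 ranged from 0.47 to 0.60 and the poly I:C value of Slc39a14 from -0.33 to -0.14. A lone array left in a group is assumed to vary like the other groups.

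The labels do not say that replicate numbers pair samples, and deviations of same-numbered arrays correlated at -0.01, -0.07 and 0.15. With the replicate number as a block, the call of Slc39a1 with PAM was lost (0.23), as were the calls of Slc30a7 and Tmem163 with poly I:C (adjusted p = 0.0515 and 0.0583) and of Trpm7 with PAM (0.0524). Over all genes, 1828 to 2839 were lower with PAM without 1 array, against 2781; the lowest count came without PAM replicate 1. With a size of at least 1 also required, poly I:C had 552 genes higher and 408 lower, PAM 452 and 386, and 517 and 474 between the ligands. Signal over background is unknown, so whether dim probes such as those of Mtf1 and Slc39a14 follow their transcripts fully was not tested.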

Other observations

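The gene with the profile most like that of Slc39a14, out of 19934, was also its neighbour on the chromosome. Ppp3cc, which encodes a catalytic subunit of calcineurin, is the protein-coding gene next to Slc39a14 on one side in RefSeq on mouse chromosome 14. It stood at -0.28 and -0.17 on the poly I:C arrays, at 1.25 and 1.47 on the PAM arrays and at -0.08 and 0.08 on the control arrays, and its difference between PAM and control was 1.36 ± 0.09. The coding neighbour on the other side, Piwil2, differed by 0.35 ± 0.08 and ranked 781st in distance. Ppp3cc was picked for its likeness to Slc39a14 on these arrays, so its values are a description. Among the coding neighbours of all 7 genes, the next by rank were Mt1, the 41st nearest to Mt2, and Mt2, the 425th nearest to Mt1. Whether probes of neighbouring genes share transcripts was not tested.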
